A study of Sus scrofa with 22 samples.

Results

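Oxidative phosphorylation subunits are the nuclear-encoded parts of the 5 complexes of the mitochondrial inner membrane that make most of a cell's ATP. Complex I takes electrons from NADH, complex II takes them from succinate, complex III passes them to cytochrome c, complex IV gives them to oxygen, and complex V, the ATP synthase, uses the proton gradient that the pumps have built. Early embryos and fetuses draw on both glycolysis and this pathway, and several subunits exist as tissue-specific isoforms. The members were chosen by gene symbol alone: NDUF subunits of the A, B, C, S and V series, SDHA to SDHD, the UQCR genes, CYC1, COX4 to COX8 genes and ATP5 genes. Of 69 such symbols in the annotation, 65 had a record in the deposited tables, out of 14389 symbols in all, and ATP5C1, ATP5J, NDUFB10 and SDHA had no matched record. No annotated symbol matched CYC1 or the COX4 genes, and UQCR10 and UQCRB are the only UQCR genes present. Sums and counts by complex therefore cover only part of each complex. By complex, 35 members belong to complex I (7 of them core subunits, which carry the redox centres), 3 to complex II, 2 to complex III, 10 to complex IV and 14 to complex V. NDUFA4 and NDUFA4L2 are described with complex IV, because NDUFA4 is now known as a subunit of that complex. The remaining member, ATP5SL, carries an ATP5 symbol but is not an ATP synthase subunit. All other ATP5 genes, ATP5S among them, were counted in complex V by symbol alone. Of the 65 members, 47 rest on 1 transcript record, and 52 have every annotated transcript matched. NDUFA1 and NDUFB11 lie on the X chromosome.

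The study sequenced RNA from pig fetuses and embryos, in 22 libraries. Fetal body tissue was taken at day 30 and day 35 from cloned fetuses labelled abnormal (2 libraries a day), cloned fetuses labelled normal (3 a day) and naturally fertilized fetuses (NF, 2 a day), all labelled male except day 30 NF replicate 2, labelled female. Blastocysts grown in vitro to day 6 came as XIST-KO (lacking XIST, the RNA behind X chromosome silencing), WT+Kdm4A (given the histone demethylase Kdm4A) and WT embryos, all labelled male, and IVF embryos, labelled as male and female pooled, with 2 libraries each. No record matched XIST or KDM4A, so neither is analysed here, and the labels do not state how Kdm4A was supplied or how many embryos a library holds. Total expected counts per library, in units of 1e6, were 0.589 to 11.5 for fetuses and 6.45 to 20.4 for embryos. Members took 0.618% to 0.910% of the symbol-assigned counts of fetuses and 3.40% to 4.90% of those of embryos, whose libraries were made with another kit from cDNA and were never fitted together with fetus libraries. Whether replicates came from different animals or cultures is not given in the labels, and p-values reflect only how these samples vary, which may be technical. In bulk tissue, fewer cells of a type and less RNA per cell cannot be told apart.

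Some libraries stood apart from their group. Day 35 abnormal replicate 2 was the shallowest fetus library, with the total of 0.589 given above, and its Spearman correlation over genes was 0.789 with day 35 abnormal replicate 1 and 0.889 to 0.908 with the 4 NF libraries. EIF1AY, a Y-linked translation factor, had 0 counts in both day 35 abnormal libraries and in day 30 NF replicate 1, all labelled male, and 20.5 to 52.9 CPM (counts per 1e6 library counts, with edgeR's scaling) in the other 11 fetus libraries. Among those 11 was day 30 NF replicate 2, labelled female, with 33.5 CPM. By this gene, picked because it separated the libraries, 4 fetus libraries thus go against their sex label. Summed over 11 Y-linked genes, the libraries without EIF1AY counts had 279 to 536 CPM, and the other 11 had 721 to 1640 CPM. Whether the labels are wrong was not tested. Among embryos, the effective record lengths implied a mean fragment of 150.0 bases in XIST-KO replicate 2, against 270.1 to 362 bases in the other 7 libraries. Marker levels also differed between fetal groups: the summed level of 7 neural markers was 353 to 723 CPM in abnormal, 2302 to 5220 CPM in normal and 486 to 901 CPM in NF fetuses, with none of the 7 at 0 in a whole group. For 8 skeletal muscle markers it was 19.6 to 194 CPM in abnormal, 448 to 2565 CPM in normal and 95.9 to 233 CPM in NF fetuses, with TNNT3 at 0 in both day 35 abnormal libraries. For 7 cardiac muscle markers it was 38.0 to 1583 CPM in abnormal, 1139 to 4070 CPM in normal and 562 to 1331 CPM in NF fetuses. The cardiac markers at 0 in a whole group were TNNT2 in day 35 abnormal, NPPA in day 30 normal, and NKX2-5, TNNT2 and NPPA in day 35 NF fetuses. For 5 trophectoderm markers it was 208 to 5405 CPM in abnormal, 182 to 361 CPM in normal and 51.8 to 88.1 CPM in NF fetuses, with CDX2 at 0 in the day 35 abnormal, day 30 normal and both NF groups. For 7 erythroid markers it was 417 to 1552 CPM in day 30 abnormal, 5.40 and 2244 CPM in day 35 abnormal, 1302 to 2933 CPM in normal and 58.7 to 227 CPM in NF fetuses, with SLC4A1 at 0 in the day 30 NF group. For 7 liver markers it was 1687 CPM in day 30 abnormal replicate 2, 21.6 to 45.4 CPM in the other abnormal, 73.1 to 237 CPM in normal and 23.8 to 30.4 CPM in NF libraries. The liver markers at 0 in a whole group were HNF4A and SERPINA1 in day 35 abnormal, TTR in both normal groups and the day 30 NF group, AFP in both NF groups, and AHSG and SERPINA1 in day 35 NF fetuses. For 6 leukocyte markers it was 2.70 to 65.5 CPM in abnormal, 15.4 to 92.6 CPM in normal and 18.2 to 26.3 CPM in NF fetuses, with PTPRC at 0 in the day 35 abnormal group.

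Levels are compared between genes in TPM, which divides by effective record length, about the record length less the mean fragment length. The implied mean fragment was 227.7 to 270.5 bases in fetuses, so very short records had small effective lengths. In fetuses the members with the highest median over the 14 libraries were ATP5I at 839 TPM (416 to 1040 TPM), COX6A1 at 803 TPM (628 to 982 TPM), ATP5E at 758 TPM (411 to 1314 TPM), ATP5B at 717 TPM (449 to 1053 TPM) and COX5B at 670 TPM (559 to 791 TPM). Each of these ranges overlaps that of its neighbour in the order. The order depends on the scale: ATP5I, with a record of 300 bases, had 34.1 to 80.9 CPM. ATP5B, with a record of 1800 bases, had 902 to 1605 CPM. ATP5B is the catalytic beta subunit of the ATP synthase and ATP5I a small membrane subunit, while COX5B and COX6A1 are structural subunits of complex IV. Median levels of complex I members ran from 8.72 TPM for NDUFA6 to 308 TPM for NDUFA3. The lowest members were COX8H at 5.86 TPM, NDUFA4L2 at 5.95 TPM and ATP5SL at 1.19 TPM. In day 6 embryos the order was headed by ATP5B at 6599 TPM, ATP5G1 at 4650 TPM, ATP5G3 at 4220 TPM, COX5B at 3144 TPM and ATP5A1 at 2897 TPM. COX8H and NDUFA4L2 had no counts in any of the 8 embryo libraries, where a count of 0 allows up to 3 counts per library.

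Summed over members, complex V held 4577 ± 28.5 TPM in day 30 abnormal (SD, n = 2), 4782 ± 116 TPM in day 30 normal (n = 3) and 5766 ± 396 TPM in day 30 NF fetuses (n = 2). Complex I held 4116 ± 44.5, 5139 ± 157 and 4712 ± 62.9 TPM in the same 3 groups, and complex IV 3079 ± 421, 3364 ± 122 and 3162.5 ± 174 TPM. The order of the groups depended on the scale. In CPM, the scale of the tests, the mean complex V sums were 3370, 3279 and 4297 in those groups. For complex I they were 2157, 2411 and 2445 CPM, and for complex IV 1008, 965 and 928 CPM. At day 35 complex I held 4494 ± 764 TPM in abnormal, 5750 ± 449 TPM in normal and 4518 ± 122 TPM in NF fetuses. In CPM the same sums were 2661, 2825 and 2358. The 2 day 35 abnormal libraries differed, with 3954 TPM in replicate 1 and 5034 TPM in replicate 2. In embryos complex V held 27546 ± 3349.6 TPM in XIST-KO, 22036 ± 1057 TPM in WT+Kdm4A, 21100 ± 2173 TPM in WT and 28232 ± 5897 TPM in IVF embryos (n = 2 each). In CPM these means were 35968, 33172, 28446 and 21609, so the IVF mean was highest in TPM and lowest in CPM. TPM in XIST-KO replicate 2 rests on a shorter implied fragment (150.0 bases) than in the other libraries. ATP5I had 8.67 and 4.25 CPM in XIST-KO replicates 1 and 2, but 779 and 31.1 TPM. The XIST-KO means and SDs in TPM therefore mix different length scales. The complex I sum in embryos was 13554 ± 4021, 10340 ± 2249, 18618 ± 659 and 11742 ± 1368 TPM in those groups, and both WT libraries lay above the other 6. The summed level of the 3 complex II members was 739 ± 247 TPM in XIST-KO, 795 ± 338 TPM in WT+Kdm4A, 153 ± 55.7 TPM in WT and 757 ± 131 TPM in IVF embryos, and here both WT libraries lay below the other 6. SDHC did not follow that order, since its WT levels of 87.9 and 45.4 TPM lay above the lowest XIST-KO and IVF levels of 4.29 and 36.5 TPM.

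**Figure D1:**
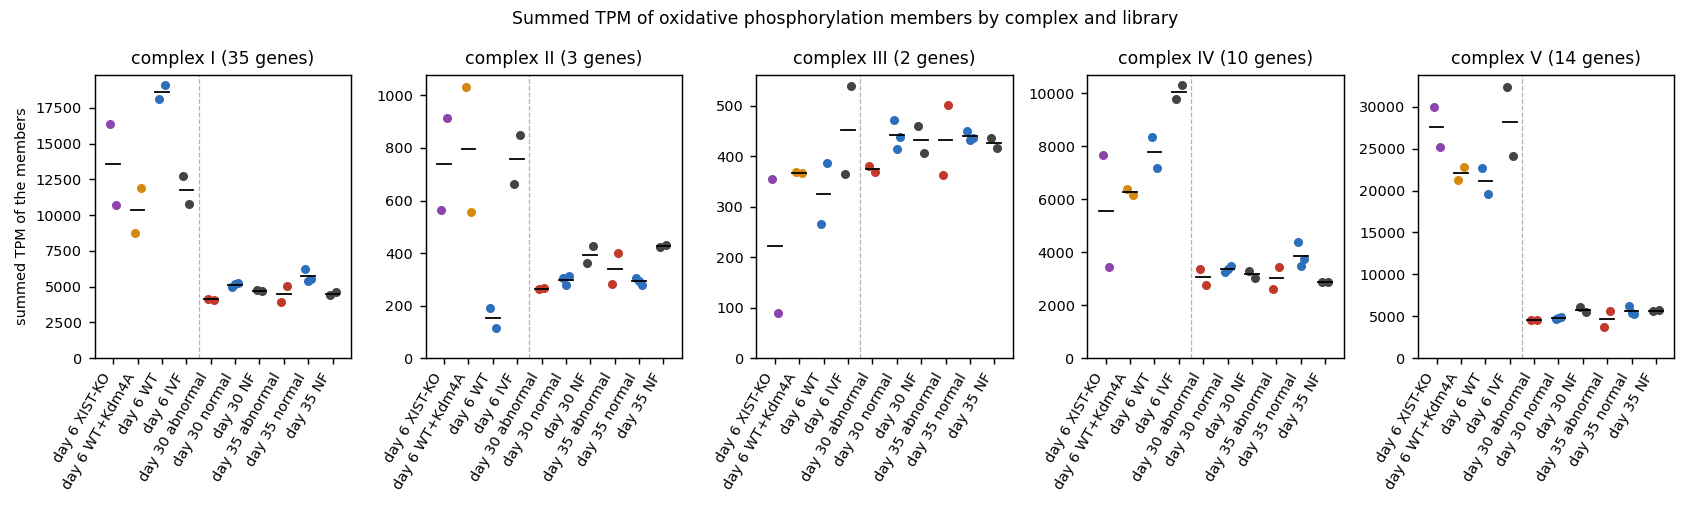
Summed TPM of the members of each complex (vertical axis, from 0; horizontal axis, group), 1 point per library and a bar at the group mean, with day 6 embryo groups left of the dashed line and fetus groups right of it. WT embryos lie highest for complex I (18152 and 19084 TPM) and lowest for complex II (114 and 192 TPM), while fetus groups lie close together.

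Abnormal and normal cloned fetuses of the same age were compared to ask which subunits differ with the outcome of cloning. At day 30 a single member rose: ATP5G2, 1 of the genes for the c subunit that forms the rotating ring of the ATP synthase. ATP5G2 (gene ID 100037988; Sscrofa11.1, chromosome 5, 18871025 to 18879933) had 197 and 236 CPM in the 2 abnormal libraries, against 94.1, 81.3 and 81.4 CPM in the 3 normal libraries. The groups did not overlap, and the log2 fold change was 1.34 ± 0.26 (SE), with an adjusted p of 0.0079 by edgeR's quasi-likelihood test with Benjamini-Hochberg adjustment over all genes. Without abnormal replicate 2 it was 1.203 and no longer passed (adjusted p = 0.0742). That 1 call of 65 members compares with 15.4% of the 9911 genes tested in this contrast (8.93% higher and 6.46% lower). The median log2 fold change was -0.10 over the members and -0.02 over all genes tested.

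The other 64 members did not pass at day 30. Among complex I members 26 of 35 had negative values, between -0.67 and 0.63 over the complex. NDUFV1, the core subunit that binds NADH and FMN, had 88.3 and 94.9 CPM in abnormal libraries, against 125, 135 and 139 CPM in normal libraries (log2 fold change -0.54 ± 0.26, adjusted p = 0.182). NDUFA10, an accessory subunit, had 100.5 and 91.1 CPM in abnormal libraries, against 149, 145 and 163 CPM in normal libraries (-0.67 ± 0.25, adjusted p = 0.0947). The groups did not overlap for either gene, yet neither passed the test. On log2(TPM + 1) values with limma, 1 member was higher and 6 were lower, but there the median over all genes was itself -0.27. The members' median on that scale was -0.33. The share of all genes called in that fit is not given here, so its counts are not a result about the members.

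At day 35, 2 members rose and 4 fell in abnormal fetuses, 6 of 65, against 23.2% of the 9911 genes tested (10.9% higher and 12.3% lower), and the medians were 0.02 over the members and 0.00 over all genes. SDHD (chromosome 9, 39790654 to 39803602), a membrane anchor of complex II, had 99.0 and 99.8 CPM in abnormal libraries, against 71.3, 64.95 and 56.2 CPM in normal libraries. Its log2 fold change was 0.63 ± 0.16 (adjusted p = 0.0171). NDUFV2, a core subunit with an iron-sulfur cluster, also rose, with 36.1 and 43.2 CPM in abnormal libraries, against 15.8, 19.0 and 25.6 CPM in normal libraries (0.95 ± 0.26, adjusted p = 0.024). NDUFS7, the core subunit with the last iron-sulfur cluster before ubiquinone, fell to 72.5 and 75.5 CPM in abnormal libraries, against 136, 104 and 110.5 CPM in normal libraries. Its log2 fold change was -0.66 ± 0.17 (adjusted p = 0.0163).

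The other 3 that fell at day 35 were ATP5E, COX6C and COX8H. ATP5E, the epsilon subunit of the ATP synthase stalk, had 168 and 97.1 CPM in abnormal libraries, against 236, 195 and 211 CPM in normal libraries (-0.64 ± 0.20, adjusted p = 0.0414). COX8H, the heart and muscle isoform of the smallest complex IV subunit, had 0.767 and 0 CPM in abnormal libraries (2 counts in all), against 9.58, 6.52 and 5.48 CPM in normal libraries. From pooled counts COX8H was 11.0-fold lower in abnormal fetuses, with an exact 95% counting interval of 2.98 to 92.1, and the interval covers counting error only (adjusted p = 0.03). COX6C, a small complex IV subunit, had 2.69 and 2.70 CPM in abnormal libraries (8 counts in all), against 20.01, 12.8 and 19.2 CPM in normal libraries, with an adjusted p of 0.0455. The skeletal muscle marker sum was 19.6 to 167 CPM in day 35 abnormal and 1305 to 2565 CPM in day 35 normal fetuses. The cardiac marker sum was 38.0 CPM in abnormal replicate 1 and 1583 CPM in abnormal replicate 2, which had no COX8H counts. In day 35 normal fetuses it was 2823 to 4070 CPM. The part of either list in the result was not tested.

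Leaving out single libraries ended most of the day 35 calls. Without abnormal replicate 1, only ATP5E of the 6 kept its call, and NDUFS7 stood at an adjusted p of 0.0502. Without abnormal replicate 2, the shallow library, ATP5E was -0.31 (adjusted p = 0.122) and COX6C was -2.64 (adjusted p = 0.0605), while the other 4 kept their calls. COX6C also missed the threshold without any 1 of the 3 normal libraries, as did ATP5E, with adjusted p-values of 0.0594 to 0.0988 for COX6C and 0.0553 to 0.111 for ATP5E. NDUFV2 and COX8H lost their calls without normal replicate 1 or 2, and SDHD lost its call without normal replicate 3. The number of members called was 12 without abnormal replicate 1 (10 higher and 2 lower) and 13 without abnormal replicate 2 (4 higher and 9 lower), where 2962 and 3608 of all genes were called, against 2300 with every library. NDUFS1, the largest core subunit of complex I, had 77.9 and 197 CPM in the 2 abnormal libraries, against 124, 116 and 103 CPM in normal libraries, and changed sign with the library left out. Its log2 fold change was 0.17 ± 0.30 (adjusted p = 0.726), without abnormal replicate 1 it was 0.77 (adjusted p = 0.00958), and without abnormal replicate 2 it was -0.51 (adjusted p = 0.0357). On log2(TPM + 1) with limma, 1 member was higher and 18 were lower, with a median of -0.32 over all genes and -0.28 over the members. Without the share of all genes called in that fit, which is not given here, these counts do not show whether members move apart from other genes.

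The abnormal-to-normal difference itself changed between the days for 1 member of 65, ATP5E, against 4.05% of genes (1.31% higher and 2.73% lower). ATP5E had 206 and 211 CPM in day 30 abnormal libraries, against 138, 139.9 and 145 CPM in day 30 normal libraries, above them without overlap. At day 35 the abnormal libraries lay below the normal ones, as given above. The day 35 difference minus the day 30 difference was -1.21 ± 0.28 (adjusted p = 0.0387), and this call was lost on leaving out any 1 of 8 of the 10 libraries, with adjusted p-values up to 0.129. Over all 10 fits the value ran from -1.72 without day 35 abnormal replicate 1 to -0.88 without day 35 abnormal replicate 2, and in these 2 fits it kept its call. Markers of low oxygen response differed between these groups at both days. Their summed level over 8 genes at day 30 was 5819 to 6689 CPM in abnormal and 728 to 784 CPM in normal libraries. At day 35 it was 917 to 12510 CPM in abnormal and 584 to 788 CPM in normal libraries. Of the 8, 6 rose at day 30 and 7 at day 35, and none was at 0 in a whole group. Their part in the subunit differences was not tested.

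**Figure D2:**
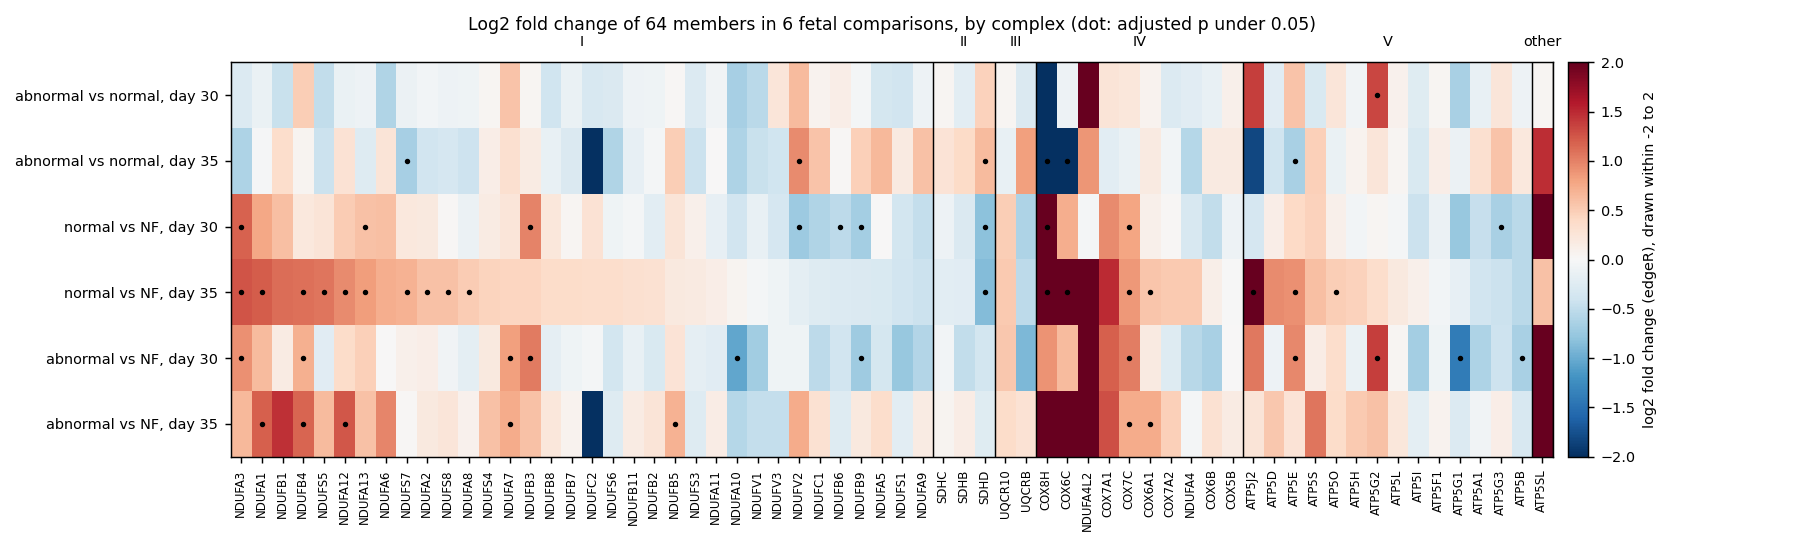
Log2 fold change of 64 members (left to right, by complex) in the 6 fetal comparisons (top to bottom), with colours limited to -2 and 2 and a dot where the adjusted p was under 0.05. Dots are most frequent for normal against NF at day 35 (18 members) and least frequent for abnormal against normal at day 30 (1 member).

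Normal cloned fetuses were set against NF fetuses to ask how cloned fetuses labelled normal differ from fertilized ones. These comparisons share the normal libraries with those above. At day 30, 5 members rose and 5 fell, 10 of 65 against 29.3% of all genes (14% higher and 15.3% lower). COX7C, a small complex IV subunit (chromosome 2, 94345436 to 94347709), had 238, 222 and 221 CPM in normal libraries, against 133 and 128 CPM in NF libraries. Its log2 fold change was 0.79 ± 0.16 (adjusted p = 0.00483). NDUFA3, a small accessory subunit of complex I (chromosome 6, 56018221 to 56021318), had 80.8, 87.2 and 70.1 CPM in normal libraries, against 39.7 and 30.0 CPM in NF libraries (1.19 ± 0.20, adjusted p = 0.00214). SDHD fell to 58.4, 57.2 and 64.2 CPM in normal libraries, against 97.0 and 116 CPM in NF libraries (-0.83 ± 0.15, adjusted p = 0.00285). COX7C, NDUFA3 and SDHD kept their calls whichever of the 5 libraries was left out.

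The other members called at day 30 moved less steadily. COX8H had 2.89, 1.67 and 3.51 CPM in normal libraries, against 0.137 and 0.305 CPM in NF libraries, that is 42 counts against 3, a ratio of 12.1 (95% counting interval 3.85 to 60.8). The complex I accessory subunits NDUFB3 (0.99) and NDUFA13 (0.58) also rose. NDUFV2 (-0.72), NDUFB9 (-0.68), NDUFB6 (-0.52) and ATP5G3 (-0.65), a c subunit gene, fell. COX8H lost its call without either NF library (adjusted p = 0.0748 and 0.0572), NDUFB9 without NF replicate 1 (adjusted p = 0.0805), and the other 5 in at least 4 of the 5 fits that left out a library.

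At day 35, 17 members rose and 1 fell, 18 of 65 or 27.7%, against 42.3% of all genes tested (22.1% higher and 20.1% lower). The median log2 fold change was 0.36 over the members and 0.06 over all genes. By complex, 10 of 35 members of complex I rose, 4 of 10 of complex IV and 3 of 14 of complex V, while SDHD of complex II fell and neither complex III member passed. Only the 2 core subunits NDUFS7 and NDUFS8 were among the 10 of complex I, and the other 8 were accessory subunits.

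Among complex I members at day 35, NDUFA3 had 89.6, 73.6 and 87.2 CPM in normal libraries, against 36.8 and 32.7 CPM in NF libraries (1.27 ± 0.21, adjusted p = 0.000927). NDUFB4, an accessory subunit of the membrane arm, had 73.0, 67.3 and 68.0 CPM in normal libraries, against 32.2 and 32.3 CPM in NF libraries (1.11 ± 0.18, adjusted p = 0.00102). NDUFS5 had 123, 101 and 103 CPM in normal libraries, against 57.0 and 47.0 CPM in NF libraries (1.07 ± 0.21, adjusted p = 0.00265). In each of these 3 the lowest normal library lay well above the highest NF library. X-linked NDUFA1 had 44.9, 53.9 and 45.2 CPM in normal libraries, against 20.5 and 21.0 CPM in NF libraries (1.21 ± 0.32, adjusted p = 0.0113), and lost its call without either NF library.

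In complex IV at day 35, COX7C had 245, 191 and 239 CPM in normal libraries, against 125 and 121 CPM in NF libraries (0.87 ± 0.16, adjusted p = 0.0018). COX6C (chromosome 4, 37074619 to 37089364) had 20.01, 12.8 and 19.2 CPM in normal libraries, against 0 and 1.05 CPM in NF libraries. COX6C thus rested on 268 counts against 6, a ratio of 33.6 with a 95% counting interval of 15.2 to 92.3 (adjusted p = 0.00122). COX8H (chromosome 2, 69199 to 70730) had 9.58, 6.52 and 5.48 CPM in normal libraries, against 0 and 0.175 CPM in NF libraries, or 114 counts against 1, a ratio of 85.7 (15.1 to 3410, adjusted p = 0.000969). COX6A1, the ubiquitous isoform of its subunit, rose by 0.55 and lost its call without 4 of the 5 libraries in turn. The skeletal muscle markers summed to 1305 to 2565 CPM in day 35 normal and 95.9 to 124 CPM in day 35 NF fetuses, and the cardiac markers to 2823 to 4070 CPM in normal and 695 to 735 CPM in NF fetuses, with NKX2-5, TNNT2 and NPPA at 0 in both NF libraries. Their part in the result was not tested.

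In complex V at day 35, ATP5E had 236, 195 and 211 CPM in normal libraries, against 109.6 and 118 CPM in NF libraries (0.91 ± 0.20, adjusted p = 0.00418). ATP5J2, a membrane subunit, had 5.72, 3.75 and 3.88 CPM in normal libraries, against 1.197 and 0.874 CPM in NF libraries (2.08 ± 0.58, adjusted p = 0.0143). ATP5O, the stalk subunit known for oligomycin sensitivity, rose by 0.49. ATP5J2 and ATP5O lost their calls without either NF library, and ATP5O also without normal replicate 1. ATP5B and ATP5A1, the catalytic core, did not pass at either day. SDHD fell to 71.3, 64.95 and 56.2 CPM in normal libraries, against 110.3 and 125 CPM in NF libraries (-0.87 ± 0.15, adjusted p = 0.00124). ATP5E, COX6C, COX7C, COX8H, NDUFA3, NDUFB4, NDUFS5 and SDHD kept their calls in all leave-one-out fits.

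**Figure D3:**
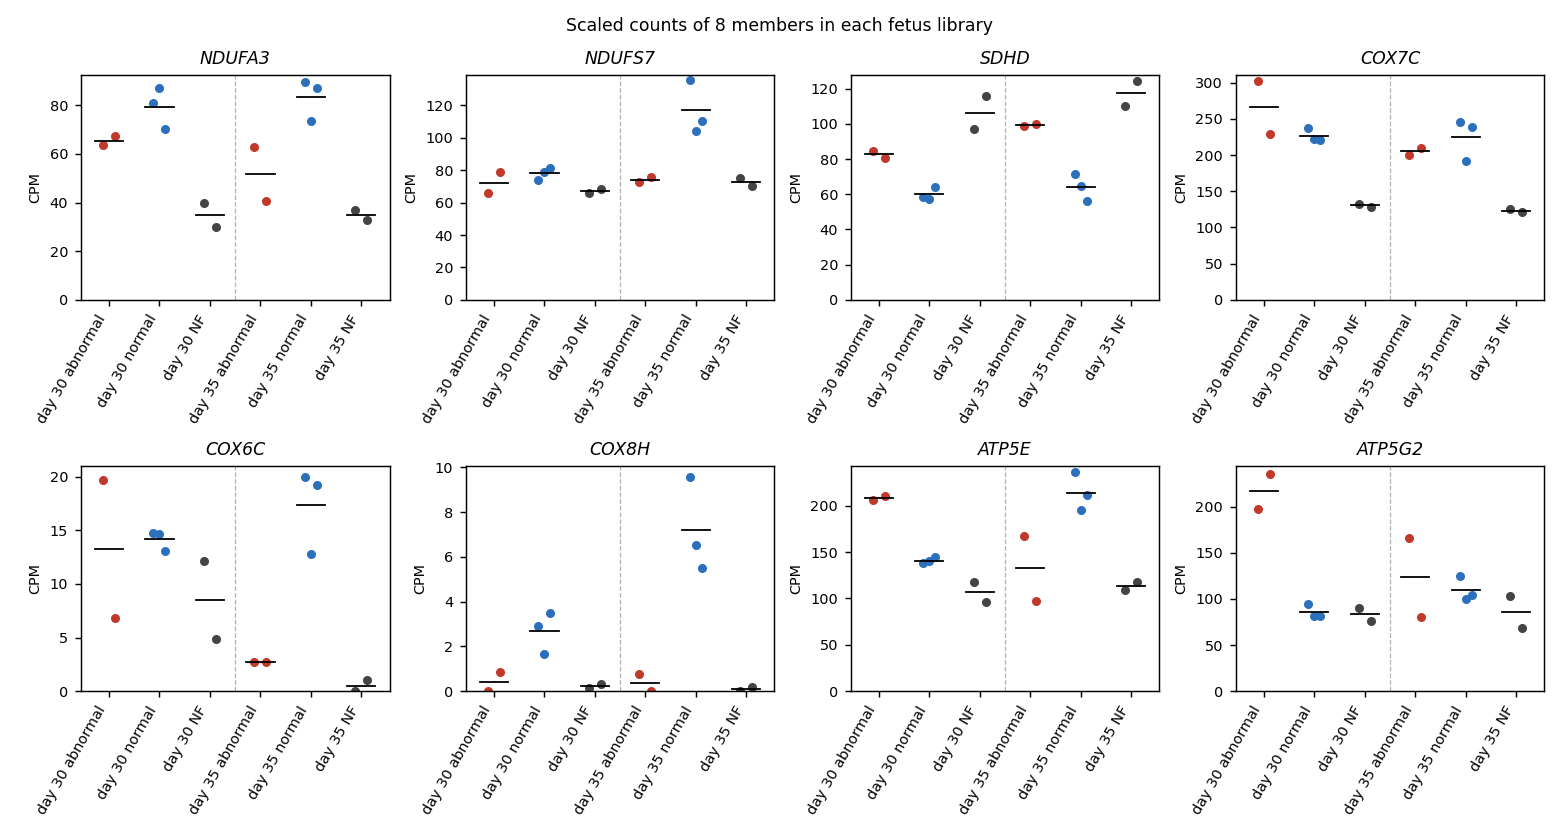
Level in CPM (vertical axis) of 8 members in every fetus library, 1 point per library and a bar at the group mean, with abnormal, normal and NF groups at day 30 and then day 35. SDHD is lowest in the normal groups (56.2 to 71.3 CPM), while COX7C is lowest in the NF groups (121 to 133 CPM).

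Most member records are short, and record length moved with the day 35 result. Among members under 600 bases, 9 of 24 rose in normal against NF fetuses, with a median of 0.53, beside 27.8% and a median of 0.46 in 198 other genes of that length. From 600 to under 1000 bases, 8 of 24 members rose and 1 fell, with a median of 0.35, beside 28.8% higher and a median of 0.40 in 749 other genes. From 1000 to under 2000 bases, none of 14 members was called, with a median of -0.05, beside 23.1% higher, 18.6% lower and a median of 0.14 in 2974 other genes. The part of record length in the result was not tested.

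**Figure D4:**
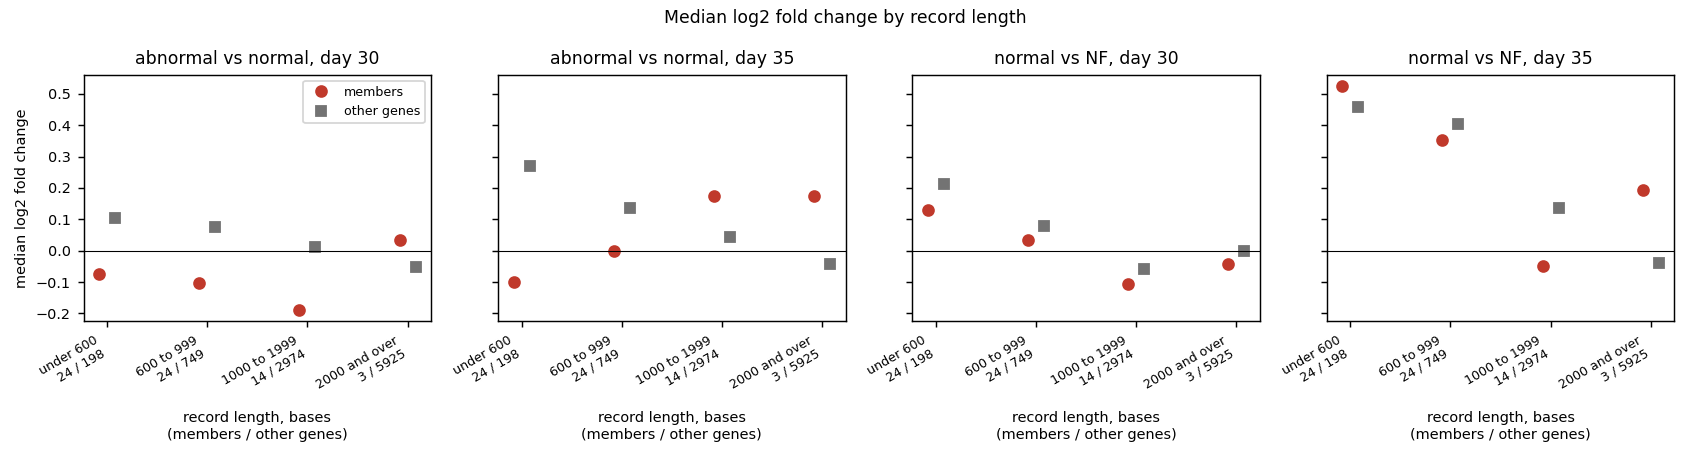
Median log2 fold change (vertical axis) by record length in bases (horizontal axis) for members and for other genes in 4 comparisons. For normal against NF at day 35 the members' medians are 0.53, 0.35 and -0.05 in the 3 shorter classes, beside 0.46, 0.40 and 0.14 for other genes.

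Abnormal fetuses were also set against NF fetuses, in comparisons that share both groups' libraries with the ones above. At day 30, 7 members rose and 4 fell, 11 of 65 against 30.0% of all genes (15.5% higher and 14.5% lower). COX7C had 302 and 229.6 CPM in abnormal libraries, against 133 and 128 CPM in NF libraries (1.02 ± 0.18, adjusted p = 0.00309), and was the 1 member among those 11 called in every leave-one-out fit. NDUFB3 (1.04), ATP5G2 (1.38), ATP5E (0.96), NDUFA3 (0.91), NDUFA7 (0.82) and NDUFB4 (0.71) also rose. ATP5G1 (-1.39), NDUFA10 (-1.05), NDUFB9 (-0.72) and ATP5B (-0.65) fell. At day 35, 7 members rose and none fell, against 23.2% of all genes (13% higher and 10.2% lower). NDUFB4 had 82.1 and 56.6 CPM in abnormal libraries, against 32.2 and 32.3 CPM in NF libraries (1.16 ± 0.21, adjusted p = 0.00584). NDUFA12 (1.24), NDUFA1 (1.19), NDUFA7 (0.75), COX6A1 (0.74), COX7C (0.73) and NDUFB5 (0.69) rose too, yet no member was called when only these 4 libraries were fitted. On log2(TPM + 1) 4 members were higher and 6 lower at day 35, where the median over all genes was -0.38, and 5 were higher and 10 lower at day 30, where it was -0.23. Shares of all genes called in these 2 fits are not given here, so the counts are not a result about the members.

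Between day 30 and day 35 little passed the test. In normal fetuses NDUFS7 had 74.0, 79.2 and 81.6 CPM at day 30 and 136, 104 and 110.5 CPM at day 35, a rise of 0.58 ± 0.14 (adjusted p = 0.0271). It was 1 call of 65, against 9.19% of genes (5.35% higher and 3.84% lower), and it was lost without any 1 of 5 of the 6 libraries. The members' median was 0.21, beside 0.07 over all genes, and 54 of 65 values were positive. In NF fetuses no member and no gene passed by edgeR's quasi-likelihood test (0.0% of genes), 4 members had an unadjusted p under 0.05, and DESeq2 called 1 member.

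Several subunits are encoded by more than 1 gene, and their shares are given here as values without a test. ATP5G1, ATP5G2 and ATP5G3 encode the same mature c subunit behind different import signals. In summed TPM of the 3, ATP5G2 made up 29.8% and 33.4% in day 30 abnormal, 18.3%, 14.6% and 15.0% in day 30 normal, and 10.02% and 10.5% in day 30 NF libraries. At day 35 it made up 25.3% and 7.42% in abnormal, 15.5%, 17.0% and 16.6% in normal and 13% and 8.28% in NF libraries. The share thus split the day 35 abnormal pair. In embryos it was 0.0503% to 1.48%, and ATP5G1 made up 41.1% to 73.1%. COX7A1, the muscle isoform of its subunit, had 0 to 6.84 CPM in fetuses, and COX7A2, the widespread isoform, had 69.7 to 118 CPM, and neither passed in a fetal comparison. NDUFA4L2, known as a gene induced by low oxygen, had 6.55 and 49.6 CPM in day 30 abnormal libraries, against 9.41, 0.761 and 0 CPM in day 30 normal libraries (3.13 ± 1.27, adjusted p = 0.117). Its values spread widely within both groups.

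NDUFC2, a small complex I subunit (chromosome 9, 12486488 to 12492507), was low in the 3 libraries that lacked EIF1AY counts. It had 3.84 and 0 CPM in day 35 abnormal libraries and 0.955 CPM in day 30 NF replicate 1, and 33.0 to 85.1 CPM in the other 11. Its day 35 difference between abnormal and normal fetuses was -4.05 ± 1.52 and did not pass (adjusted p = 0.0788).

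Among day 6 embryos, 61 members had enough counts to be tested with 6958 genes, and COX7A1, COX8H, NDUFA4L2 and ATP5SL did not. The spread between replicates was wide, with a biological coefficient of variation of 0.89, against 0.29 in fetuses. All 3 comparisons use the same WT libraries. Trophectoderm markers were abundant in every group, at 80530 to 84110 CPM in XIST-KO, 47260 to 100800 CPM in WT+Kdm4A, 60920 to 64160 CPM in WT and 35290 to 82700 CPM in IVF embryos. The 4 inner cell mass markers summed to 76.4 to 360.3 CPM in XIST-KO, 81.2 to 111 CPM in WT+Kdm4A, 1157 to 2903 CPM in WT and 37.9 to 43.9 CPM in IVF embryos. POU5F1 made up nearly all of the WT sum, at 1156 and 2901 CPM. KLF4, the other of the 4 with enough counts to be tested, had 0.966 and 1.92 CPM in WT libraries, against 10.4 and 14.1 CPM in IVF libraries, and did not pass (-3.08, adjusted p = 0.16). NANOG and SOX2 were at 0 in the XIST-KO, WT+Kdm4A and WT groups. The 8 low oxygen response genes summed to 158 to 230.4 CPM in XIST-KO, 211 to 233 CPM in WT+Kdm4A, 950.2 to 1496 CPM in WT and 324 to 387 CPM in IVF embryos. BNIP3 made up most of the WT sum, at 743 and 1373 CPM, and was the 1 gene of the 8 called in WT against IVF (4.41) and in WT+Kdm4A against WT embryos (-5.24). In both of these comparisons 5 of the 8 values were positive and 3 negative, with medians of 0.13 in WT against IVF and 0.39 in WT+Kdm4A against WT embryos. The part of these lists in the results that follow was not tested.

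In WT cloned against IVF embryos 5 members rose and 4 fell, 9 of 61 or 14.8%, against 5.71% of all genes tested (4.28% higher and 1.42% lower). All 5 that rose belong to complex I. NDUFS8, a core iron-sulfur subunit (chromosome 2, 4863295 to 4867392), had 1816 and 3383 CPM in WT libraries, against 18.7 and 4.91 CPM in IVF libraries (7.79 ± 0.94, adjusted p = 0.00371). NDUFA10 (chromosome 15, 138999174 to 139031892) had 514 and 1567 CPM in WT libraries, against 5.35 and 2.21 CPM in IVF libraries (8.11 ± 0.98, adjusted p = 0.00371). NDUFV3, an accessory subunit beside the NADH site (chromosome 13, 206111337 to 206123987), had 157 and 173 CPM in WT libraries, against 2.29 and 0.613 CPM in IVF libraries (6.83 ± 1.03, adjusted p = 0.00867). In all 3 the WT libraries lay far above the IVF libraries.

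NDUFS6, a zinc-binding subunit needed late in complex I assembly (chromosome 16, 78993909 to 79000001), had 151 and 292 CPM in WT libraries, against 0.153 and 0 CPM in IVF libraries. This was 2612 counts against 1, a ratio of 3210 with a 95% counting interval of 576 to 127000 (adjusted p = 0.0145), and the fitted log2 value of 11.40 depends on the prior count. NDUFA12 also rose, by 3.29 ± 0.69. SDHD fell to 18.8 and 21.8 CPM in WT libraries, against 213 and 215 CPM in IVF libraries (-3.40 ± 0.61, adjusted p = 0.0145). NDUFB5 (-4.43), ATP5G2 (-4.28) and NDUFA7 (-3.89) fell as well. No member was called without IVF replicate 2, and 2 to 4 were called without any other library. The members' median was 0.45, beside -0.23 over all genes; on log2(TPM + 1) it was -0.11, beside -0.51.

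In XIST-KO against WT embryos 1 member rose and 3 fell, 4 of 61 or 6.56%, against 1.11% of all genes (0.417% higher and 0.690% lower). NDUFS8 had 55.2 and 102 CPM in XIST-KO libraries, against 1816 and 3383 CPM in WT libraries (-5.05 ± 0.83, adjusted p = 0.0277). NDUFA10 had 34.4 and 16.9 CPM in XIST-KO libraries, against 514 and 1567 CPM in WT libraries (-5.34 ± 0.86, adjusted p = 0.0277). NDUFV3 had 3.47 and 3.94 CPM in XIST-KO libraries, against 157 and 173 CPM in WT libraries (-5.47 ± 0.96, adjusted p = 0.0322). These are 3 of the genes that were high in WT embryos. SDHD had 176 and 258 CPM in XIST-KO libraries, against 18.8 and 21.8 CPM in WT libraries (3.42 ± 0.61, adjusted p = 0.0341). NDUFS6 had 6.44 and 0.0625 CPM in XIST-KO libraries, against 151 and 292 CPM in WT libraries, and did not pass (adjusted p = 0.0778). Over the leave-one-out fits, each with 1 library left in a group, NDUFS8 ran from -5.57 to -4.43 and NDUFA10 from -5.93 to -4.27. NDUFV3 ran from -5.59 to -5.32 and SDHD from 3.09 to 3.68. Each of these 4 members lost its call in 3 of the 4 fits.

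The X-linked members did not pass in this comparison. NDUFA1 had 48.8 and 23.7 CPM in XIST-KO libraries, against 28.7 and 16.0 CPM in WT libraries, with overlap between the groups (0.70 ± 0.85, adjusted p = 0.708). NDUFB11 had 436 and 308 CPM in XIST-KO libraries, against 811 and 929.6 CPM in WT libraries (-1.23 ± 0.63, adjusted p = 0.307).

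In WT+Kdm4A against WT embryos 4 members rose and 7 fell, 11 of 61 or 18%, against 7.43% of all genes (2.95% higher and 4.48% lower). NDUFS8 had 15.4 and 33.0 CPM in WT+Kdm4A libraries, against 1816 and 3383 CPM in WT libraries (-6.75 ± 0.90, adjusted p = 0.00481). NDUFA10 had 5.60 and 11.9 CPM in WT+Kdm4A libraries, against 514 and 1567 CPM in WT libraries (-6.89 ± 0.93, adjusted p = 0.00481). NDUFV3 had 0.361 and 0.319 CPM in WT+Kdm4A libraries, against 157 and 173 CPM in WT libraries (-8.87 ± 1.13, adjusted p = 0.00458). NDUFS6 had 1 count in the WT+Kdm4A libraries together, against 2612 in the WT libraries, and was 6370-fold lower (95% counting interval 1140 to 252000, adjusted p = 0.0114). These 4 kept their calls whichever library was left out.

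Of the 3 complex II members, SDHD and SDHB rose. SDHD had 321 and 197 CPM in WT+Kdm4A libraries, against 18.8 and 21.8 CPM in WT libraries (3.67 ± 0.62, adjusted p = 0.0112). SDHB, the iron-sulfur subunit, had 355 and 249 CPM in WT+Kdm4A libraries, against 68.0 and 47.0 CPM in WT libraries (2.39 ± 0.57, adjusted p = 0.0313). SDHC had 293 and 221 CPM in WT+Kdm4A libraries, against 133 and 81.9 CPM in WT libraries, and did not pass (1.26 ± 1.09, adjusted p = 0.456). NDUFA7 (3.52) and ATP5G2 (3.23) also rose, and NDUFS4 (-3.51), NDUFA12 (-2.81) and COX7A2 (-2.50) fell. Without WT replicate 1 or WT replicate 2, 4 members were called in each case, and SDHD then had adjusted p-values of 0.0708 and 0.0866; without WT+Kdm4A replicate 1, 6 were called. The members' median was -0.51, beside 0.35 over all genes.

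**Figure D5:**
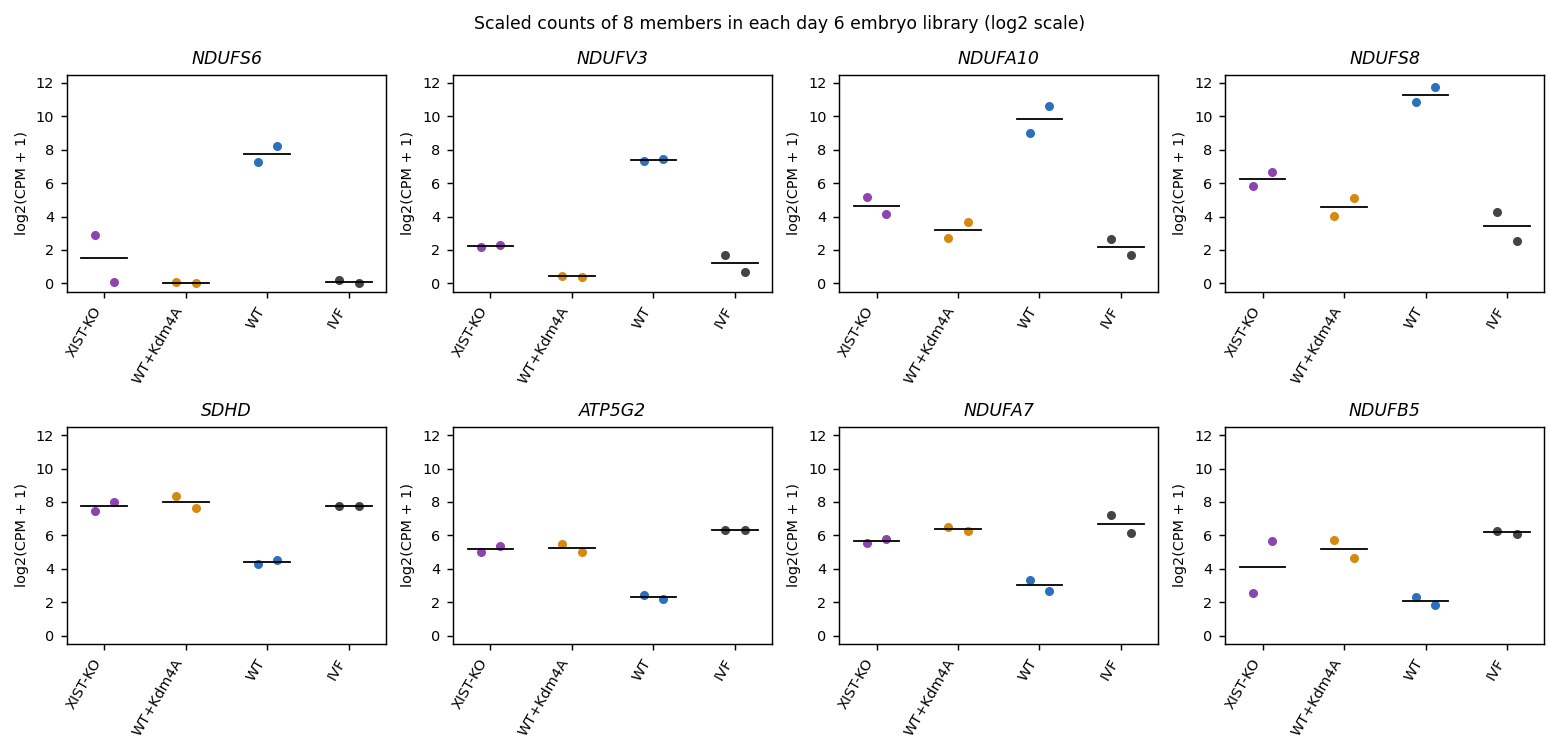
Level as log2(CPM + 1) (vertical axis) of 8 members in the 8 embryo libraries, 1 point per library and a bar at the group mean, for XIST-KO, WT+Kdm4A, WT and IVF embryos. The 2 WT libraries lie highest for NDUFS6, NDUFV3, NDUFA10 and NDUFS8 and lowest for SDHD, ATP5G2, NDUFA7 and NDUFB5.

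Genes that build or feed the complexes were counted from lists of assembly factors, TCA cycle enzymes and carriers, to be read against the shares of all genes called. In abnormal against normal fetuses at day 35 those were 10.9% higher and 12.3% lower. In normal against NF fetuses they were 14% and 15.3% at day 30, and 22.1% and 20.1% at day 35. In WT against IVF embryos they were 4.28% and 1.42%, and in WT+Kdm4A against WT embryos 2.95% and 4.48%. Of 20 assembly factors with a record, none passed between abnormal and normal fetuses at day 30, and 2 rose at day 35, TMEM126B (1.21) and LRPPRC (0.80). LRPPRC lost that call in 4 of the 5 fits that left out a library, with values of 0.33 to 1.21. In normal against NF fetuses 1 rose and 5 fell at day 30, and 5 fell at day 35, among them NDUFAF4 (-1.47), NDUFAF6 (-1.25) and LRPPRC (-1.24), and NDUFAF4 lost its call without either NF library. Of 15 TCA enzymes, 4 fell at day 30 and 6 at day 35 in normal against NF fetuses, led by IDH3A (-1.47 at day 30 and -1.69 at day 35) and DLST (-0.99 and -1.19), and none rose. Without day 30 NF replicate 2, IDH3A was -0.92 at day 30 and both lost their day 30 calls. Of 11 carriers tested, 4 rose in abnormal against normal fetuses at day 35, among them VDAC2 (1.21) and VDAC1 (1.03), pores of the outer membrane. In normal against NF fetuses none of the 11 rose and 4 fell at day 30, while 2 rose, SLC25A4 (0.95) and ETFB (0.64), and 4 fell at day 35. Over the leave-one-out fits SLC25A4 ran from 0.74 to 1.06 and ETFB from 0.46 to 0.83, and neither kept its call in all of them. CYCS, cytochrome c itself, fell by 1.34 at day 30 and 1.43 at day 35 on the log2 scale. CYCS lost its call in 4 of the 5 leave-one-out fits at day 30, and without NF replicate 2 at day 35. In WT against IVF embryos 3 TCA enzymes rose, OGDH (6.69), SUCLG1 (2.64) and IDH3B (2.20), and SUCLG1 and IDH3B lost their calls in all 4 leave-one-out fits and OGDH without either IVF library. In WT+Kdm4A against WT embryos OGDH fell (-7.91) while IDH3A (3.32) and PDHB (3.11) rose, and both of these lost their calls without either WT library. Of 8 biogenesis regulators, ESRRG (7.37) and ESRRB (4.12) rose and TWNK (-0.87) fell in normal against NF fetuses at day 35. ESRRG lost its call without either NF library, and TWNK without NF replicate 1.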

How the data were processed

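RNA-seq tables of 22 libraries were used as deposited. Per the file headers each holds an expected count and TPM per RefSeq transcript record, and per the submitters' processing notes they come from RSEM 1.2.4 on Sscrofa11.1. Of 65927 records, 25305 (38.4%) matched a symbol by accession, and expected counts and TPM were summed over the 14389 symbols. Sums were rounded to whole counts and tested with edgeR 4.0.16 (R 4.3.3; TMM scaling, low-count filter, quasi-likelihood test, Benjamini-Hochberg adjustment over all genes, threshold 0.05), fetuses and embryos apart, each with all its groups. Unmatched records were left out, and 1 member enters the counts and sums but is not reported here by itself. Alternatives were other size factors, no filter, DESeq2 1.42.0, limma 3.58.1 on log2(TPM + 1) and log2(TPM + 0.1), a replicate block, only the compared groups, and leaving out libraries. The scripts were tested on simulated data. Members and lists were chosen with earlier results of these data known. Text names, per complex and direction, up to 4 called members with the largest change, up to 3 genes of each other list, and a fixed set of subunits; other members were named after their values were seen. PCR reads carry no molecular identifiers here, so intervals cover counting error only.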

Additional observations from a re-analysis of the deposited data

Results flagged for a closer look

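The abnormal-to-normal difference of ATP5E changed between the days by -1.21 (day 35 minus day 30, log2 scale; adjusted p = 0.0387 by edgeR's quasi-likelihood test), and that of the complex I assembly factor TMEM126B by 1.63 (adjusted p = 0.0418). Both calls were lost in 8 of the 10 fits that left out a library, with adjusted p-values up to 0.129 for ATP5E and 0.118 for TMEM126B. For 4 further members every abnormal library lay on 1 side of the other group at day 30 and on the opposite side at day 35, a pattern they were picked for, and no change between the days passed the threshold where it was tested. The share of all genes with this pattern was not counted, so the 4 are not a result about the members. ATP5J2 was 1.39 at day 30 and -1.82 at day 35 in abnormal against normal fetuses, a change of -3.21 (adjusted p = 0.074). NDUFA5 was -0.35 and 0.66 in the same comparison, a change of 1.01 (adjusted p = 0.11). In abnormal against NF fetuses NDUFB9 was -0.72 and 0.19, a change of 0.91, and NDUFC1 was -0.53 and 0.31, a change of 0.84; these 2 changes were not tested.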

How the results depend on the processing

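Counts of members called moved by over 1.5 times as follows, and the cause was not tested. In this section the share of all genes called in each fit is not given. The counts therefore show how steady the calls are, and not whether members move apart from other genes. For abnormal against normal at day 30 (1 called) RLE size factors gave 2, DESeq2 5, log2(TPM + 1) 7, log2(TPM + 0.1) 6 and only the compared groups 13; at day 35 (6 called) the TPM fits gave 19 and 18 and only the compared groups 1. For normal against NF only the compared groups gave 17 at day 30 (10 called) and 32 at day 35 (18 called), where DESeq2 gave 29. For abnormal against NF at day 35 (7 called) no filter gave 4, DESeq2 16 and only the compared groups 0. For day 35 against day 30 in normal fetuses (1 called) RLE gave 2, DESeq2 8, log2(TPM + 0.1) 0 and only the compared groups 16, and in NF fetuses (0 called) DESeq2 gave 1. For the change of the abnormal-to-normal difference (1 called) no filter gave 0 and log2(TPM + 1) 2. In embryos no filter gave 14 and DESeq2 14 for WT against IVF (9 called); no filter 8, DESeq2 15 and log2(TPM + 1) 9 for XIST-KO against WT (4 called); and DESeq2 22 and only the compared groups 17 for WT+Kdm4A against WT (11 called). Leaving out day 35 abnormal replicate 2 where it is not compared, chosen after seeing the data, gave 9 for abnormal against normal at day 30, 22 and 29 for normal against NF at days 30 and 35, 22 for abnormal against NF at day 30 and 8 for day 35 against day 30 in normal fetuses.

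Leaving out each compared library gave 0 to 2 and 2 to 13 members for abnormal against normal at days 30 and 35, 5 to 7 and 9 to 19 for normal against NF, 2 to 8 and 1 to 21 for abnormal against NF, 0 to 1 for either day comparison, 0 to 14 for the change between days, 0 to 4 for WT against IVF, 0 to 11 for XIST-KO against WT and 4 to 12 for WT+Kdm4A against WT. NDUFS1 in abnormal against normal at day 35 was 0.17, 0.77 without abnormal replicate 1 and -0.51 without abnormal replicate 2.

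Deviations of same-numbered libraries from their group means had correlations of -0.072 to 0.148 in fetuses and -0.31 to 0.093 in embryos. In a group of 2 libraries the deviations mirror each other, which fixes the correlations of same-numbered and other pairs as opposites. Whether same-numbered libraries share a batch therefore cannot be told from these values. With the replicate block the calls were 1 and 2 for abnormal against normal at days 30 and 35, 6 and 14 for normal against NF, 8 and 4 for abnormal against NF, 0 for either day comparison and for the change between days, 10 for WT against IVF, 5 for XIST-KO against WT and 9 for WT+Kdm4A against WT.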
